A study of Mus musculus with 24 samples.

Results

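The 44 genes described here encode the machinery that copies DNA in S phase, and they were taken from the table of the whole left ventricle by symbol. The list covers 9 roles, from the licensing of replication origins to the supply of nucleotides, the assembly of new chromatin and entry into S phase. All 44 are among the 14912 genes in the table, all 44 passed the filter on low values (a mean of at least 0.1 FPKM), and 14026 genes in all were tested. FPKM scales the fragments of a gene to its transcript length and to the size of the library.

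Wild-type male C57BL/6J mice carried an osmotic minipump that delivered ANG II, the peptide angiotensin II, at 1500 ng/kg/min for 7 days (hypertensive-LVH group) or saline for the same 7 days (control group). LVH is left ventricular hypertrophy. In each group 12 left ventricles, each from 1 mouse, are analysed here, and RNA was sequenced from the whole tissue. The hearts of both groups had been flushed with saline, no genetic change was made in either group, and no age is given in the sources used here. In such bulk samples a larger number of cells of a type and more RNA per cell cannot be told apart.

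Replication starts when the origin recognition complex, with Cdc6 and Cdt1, loads the Mcm2 to Mcm7 ring onto DNA in G1. Cdc45 and the GINS complex then turn the ring into a moving helicase, and polymerases, the clamp Pcna and its loader, ligases and nucleotide-making enzymes complete the copy. Many of these genes are transcribed at the G1/S boundary under E2F factors. Most adult cardiomyocytes no longer divide, and the other cells of the ventricle divide rarely in the unstressed heart.

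The deposited values had been adjusted before deposit. Negative values made up 0.766% of the table, and ties between samples showed 4 sets of 3 samples in each group (1 to 3, then 4 to 6, 7 to 9 and 10 to 12). A shift and scale made separately in each set and group would leave such ties, but no source used here describes the step. What the adjustment took from the groups is not known, and the tests below do not account for it. The FPKM of hypertensive-LVH samples summed to between 460715 and 515185, and that of control samples to between 482319 and 567727. Of the 1056 values of the 44 genes, 1 was negative (Gins2 in control sample 4). The 8 cardiomyocyte markers summed to between 31664 and 51967 FPKM over both groups, and none of them was under the filter. Depth cannot be read from FPKM and is unknown.

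The letters that E2F factors are known to bind were looked for in the RefSeq promoters (build GRCm38.p6, 250 bases before to 50 after each start), in which 36 of the 44 genes had an entry. The letters TTTCGCGC, TTTGGCGC, TTTCCCGC and TTTGCCGC were searched on both strands, and matches may overlap. Some genes, such as Lig1 and Dnmt1, have several entries. Only the first entry of each gene was searched, here and below, so each promoter counted stands for a gene. At least 1 of them stood in 10 of the 36 promoters (27.8%), in 626 of all 27025 promoters (2.32%) and in 422 of the 11012 promoters of tested genes (3.83%). Of the promoters of genes that rose in the hypertensive-LVH group (results below), 6 of 20 (30%) held a match, and of those of genes that passed no test, 4 of 14 (28.6%). Neither of the promoters of Dut and Rpa1, which fell, held one of these letters. The window of Dut, like that of E2f1, lay inside the annotated gene, so the bases before its annotated start were not searched. For 30 of the 36 genes, the first 20 bases after the start were in an annotated transcript of the gene. The 250 bases before the start are printed for Mcm5 (chr8:75109259-75109508, + strand) and Mcm6 (chr1:128359706-128359955, - strand), 2 subunits of the helicase ring that rose, and for Pola1 (chrX:93632156-93632405, - strand), the catalytic subunit of polymerase alpha, which passed no test. They run 5′ to 3′ along the gene's strand, lie before the gene's first annotated exon, and show the matches in capitals.
Mcm5: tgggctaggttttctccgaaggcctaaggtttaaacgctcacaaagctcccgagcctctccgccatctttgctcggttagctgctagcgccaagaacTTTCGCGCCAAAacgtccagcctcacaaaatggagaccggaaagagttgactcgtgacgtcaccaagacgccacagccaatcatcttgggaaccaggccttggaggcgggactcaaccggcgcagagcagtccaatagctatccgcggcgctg
Mcm6: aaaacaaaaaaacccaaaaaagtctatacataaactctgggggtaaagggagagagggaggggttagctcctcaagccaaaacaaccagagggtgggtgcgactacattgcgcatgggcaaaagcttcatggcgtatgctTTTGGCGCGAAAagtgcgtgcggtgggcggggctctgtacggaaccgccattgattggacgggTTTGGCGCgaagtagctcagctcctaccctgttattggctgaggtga
Pola1: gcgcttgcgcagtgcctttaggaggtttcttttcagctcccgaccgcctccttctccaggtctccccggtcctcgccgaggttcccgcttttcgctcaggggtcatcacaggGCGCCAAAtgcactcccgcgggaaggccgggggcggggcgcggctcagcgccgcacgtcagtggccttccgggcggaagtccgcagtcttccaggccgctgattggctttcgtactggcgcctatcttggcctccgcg
A match describes the letters only and is no evidence of a bound factor. Mcm5 and Mcm6 each hold 2 overlapping matches on opposite strands, and Mcm6 a further one nearer to the start.

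In the hypertensive-LVH group 24 of the 44 genes rose (54.5%), against 20.9% of all genes tested, and 2 fell (4.55%), against 12.6%. The genes with the largest log2 fold changes were Uhrf1, Tk1, Chaf1b, Gins2 and E2f1, whose mean FPKM was 1.89 to 2.85 times that of the control group. Dut, which removes dUTP, and Rpa1, which binds single-stranded DNA, were the 2 that fell. A gene was called where the adjusted p of limma on log2(FPKM + 1) was under 0.05, with Benjamini-Hochberg adjustment over all genes tested. Fold changes on this scale understate the change of genes with low FPKM, so ratios of mean FPKM are given beside them. The median log2 fold change was 0.19 over the 44 genes and 0.05 over all genes tested. It was positive in 35 of the 44 genes and in 8944 of the 14026 genes tested. With a log2 fold change of over 0.5 added to the call, 9 of the 44 rose (4.52% of all genes) and 0 fell (1.4% of all genes). These 9 were Mcm5, Gins2, Lig1, Rrm2, Tk1, Chaf1a, Chaf1b, Uhrf1 and E2f1. The count of 9 depended on the setting: it was 5 without hypertensive-LVH sample 11, 5 without samples 4 to 6 of each group, 5 with median-ratio scaling, 4 with quantile normalization and 14 with a pseudocount of 0.1.

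**Figure D1:**
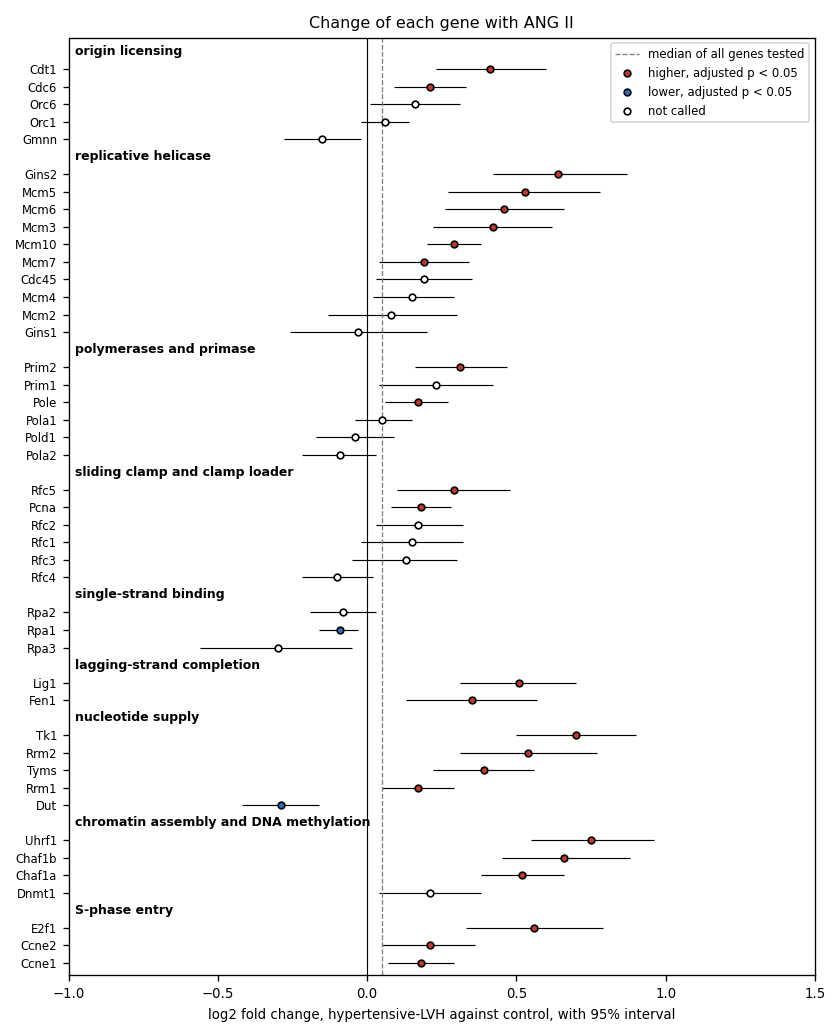
The horizontal axis is the log2 fold change of FPKM + 1 (hypertensive-LVH over control, n = 12 each) with its 95% confidence interval for each of the 44 genes, grouped by role. Uhrf1, at 0.75, lies farthest to the right, and Rpa3, at -0.30, farthest to the left.

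Entry into S phase was represented by 3 genes, and all 3 rose. E2f1 (chr2:154559407-154569892, - strand, whole gene, as all gene positions here, in GENCODE vM21 on GRCm38), the transcription factor that drives S-phase genes, was at 0.868, 1.89 and 2.87 FPKM (lowest, median and highest of 12) in the hypertensive-LVH group and at 0.258, 1.07 and 1.47 FPKM in the control group. Of the 12 hypertensive-LVH samples, 8 lay above every control sample, and the groups overlapped. The log2 fold change of E2f1 was 0.56 ± 0.11 (SE), with an adjusted p of 6.36e-04 in limma, and its mean FPKM was 1.97 times that of the control group. Ccne1 and Ccne2 encode the E cyclins, which activate Cdk2 at the G1/S boundary, and rose by log2 fold changes of 0.18 and 0.21. The call of Ccne2 was lost in 14 of the 37 other settings run, among them those without hypertensive-LVH samples 1, 6, 8 or 11 and without control samples 3, 5, 6 or 9. Of the exonic bases of Ccne2, 609 of 3495 are shared with Ints8 on the opposite strand, so its value is uncertain. Ints8 had means of 5.25 FPKM against 4.52 FPKM in the control group (log2 fold change 0.18, adjusted p = 0.0546, limma). The call of Ccne1 was lost under quantile normalization and with the replicate number as a block. It was also lost without samples 7 to 9 or samples 10 to 12 of each group.

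Of the 5 genes of origin licensing, Cdt1 and Cdc6 rose and 0 fell. Cdt1 (chr8:122568015-122573554, + strand) brings the Mcm ring to the origin. It was at 1.17, 1.68 and 2.78 FPKM (lowest, median and highest) in the hypertensive-LVH group and at 0.704, 1.12 and 1.55 FPKM in the control group, with a log2 fold change of 0.41 ± 0.09 (SE) and an adjusted p of 0.0012 in limma. The groups overlapped, with 10 of the 12 hypertensive-LVH samples above every control sample. Cdc6, an ATPase of the same loading step, rose by a log2 fold change of 0.21, and its mean FPKM was 1.77 times that of the control group. This call was lost under quantile normalization. Gmnn encodes geminin, which binds Cdt1 and blocks renewed licensing. It was the most abundant of these genes, at 25.1 ± 2.62 FPKM (SD, n = 12) against 28.1 ± 3.19 FPKM in the control group, and its difference of -0.15 did not pass the test (adjusted p = 0.0612, limma). Orc1 and Orc6, subunits of the origin recognition complex, had log2 fold changes of 0.06 and 0.16 and did not pass the test.

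The replicative helicase and its activators had 10 genes, of which 6 rose and 0 fell. Gins2 (chr8:120578633-120589304, - strand), a subunit of GINS, was at 0.92, 1.45 and 2.44 FPKM (lowest, median and highest) in the hypertensive-LVH group and at -0.15, 0.668 and 0.973 FPKM in the control group. All but 1 of the hypertensive-LVH samples lay above every control sample. Its log2 fold change was 0.64 ± 0.11 (SE), with an adjusted p of 1.02e-04 in limma. Of the exonic bases of Gins2, 2758 of 4097 are shared with Gse1 on the opposite strand, and strand use in counting is not stated, so reads of the pair cannot be told apart. The log2 fold change of Gse1 itself was 0.03 (adjusted p = 0.721, limma).

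Within the ring of Mcm2 to Mcm7 the subunits differed in their calls. Mcm5 rose by a log2 fold change of 0.53 (adjusted p = 0.00214, limma), Mcm6 by 0.46 and Mcm3 by 0.42. Within samples 1 to 3 their differences were -0.00, 0.10 and 0.07 in that order. That of Mcm5 was 0.78, 0.80 and 0.52 in the later sets. The first set of Mcm5 against the others did not pass the test (adjusted p = 0.352, limma). In Mcm5 the hypertensive-LVH samples ran from 1.32 to 4.74 FPKM and the control samples from 0.984 to 2.49 FPKM, with an overlap, and in Mcm6 from 3.94 to 8.71 FPKM against 2.75 to 4.87 FPKM. Mcm7 was called at an adjusted p of 0.05 as rounded (log2 fold change 0.19), and its call was lost in 26 of the 37 other settings. Mcm2 and Mcm4 had log2 fold changes of 0.08 and 0.15 and did not pass the test. Mcm2 ran from 2.27 to 5.89 FPKM in hypertensive-LVH samples and from 2.63 to 4.63 FPKM in controls. Whether the subunits differed from each other was not tested. Mcm10, which helps to start the helicase, was low in both groups, at 0.577 ± 0.144 FPKM (SD, n = 12) against 0.286 ± 0.0639 FPKM, and its mean was 2.02 times that of the control group (log2 fold change 0.29, adjusted p = 3.82e-05, limma). Gins1 and Cdc45, with log2 fold changes of -0.03 and 0.19, did not pass the test.

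Of the 6 genes of polymerases and primase, Prim2 and Pole rose. Prim2 (chr1:33453810-33669795, - strand), the large subunit of the primase that makes RNA primers, was at 1.54, 2 and 2.88 FPKM (lowest, median and highest) in the hypertensive-LVH group and at 1.08, 1.48 and 2.06 FPKM in the control group. Its groups overlapped, although all 12 hypertensive-LVH samples lay above the control median. Prim2 had a log2 fold change of 0.31 ± 0.08 (SE), with an adjusted p of 0.00266 in limma. Pole, the catalytic subunit of the leading-strand polymerase epsilon, rose by 0.17. The call of Prim2 was lost without samples 4 to 6 of each group, and that of Pole also without samples 10 to 12 and under quantile normalization. Prim1, the catalytic primase subunit, at 0.23, Pola1 at 0.05, its partner subunit Pola2 at -0.09 and Pold1, of the lagging-strand polymerase delta, at -0.04 did not pass the test.

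The sliding clamp and its loader had 6 genes, of which Rfc5 and Pcna rose. Rfc5 (chr5:117378103-117389047, - strand), a small subunit of the loader, was at 2.34, 2.86 and 4.48 FPKM (lowest, median and highest) in the hypertensive-LVH group and at 1.41, 2.29 and 3.19 FPKM in the control group, with a log2 fold change of 0.29 ± 0.09 (SE) and an adjusted p of 0.0177 in limma. Of its hypertensive-LVH samples 2 lay above every control sample. The call was lost under quantile normalization, with the replicate number as a block, and without samples 4 to 6 or 10 to 12 of each group. Of the exonic bases of Rfc5, 499 of 4669 are shared with Wsb2 on the opposite strand, so its value is uncertain. Wsb2 had means of 57.7 FPKM against 58.8 FPKM in the control group. Pcna, the clamp that tethers polymerases to DNA, was more abundant, at 29.6 ± 2.67 FPKM against 25.9 ± 1.98 FPKM (SD, n = 12 each), and rose by 0.18 (adjusted p = 0.00584, limma), with 8 of the 12 hypertensive-LVH samples above every control sample. The genome holds pseudogenes of Pcna, so its value is uncertain. The other loader subunits, Rfc1 to Rfc4, had log2 fold changes between -0.10 and 0.17 and did not pass the test.

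The 3 single-strand binding genes, the subunits of replication protein A, had negative log2 fold changes, and 1 of them fell. Rpa1 (chr11:75298166-75348324, - strand), the large subunit, was at 17.9, 19 and 20.8 FPKM (lowest, median and highest) in the hypertensive-LVH group and at 19, 20.5 and 21.5 FPKM in the control group, so the groups overlapped and 11 of the 12 hypertensive-LVH samples lay below the control median. Its log2 fold change was -0.09 ± 0.03 (SE), with an adjusted p of 0.0162 in limma. Rpa2 and Rpa3, the smaller subunits, had log2 fold changes of -0.08 and -0.30 and did not pass the test. The call of Rpa1 was lost with the replicate number as a block. It was also lost without samples 1 to 3, without samples 7 to 9 and without samples 10 to 12 of each group.

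Both genes of lagging-strand completion rose. Lig1 (chr7:13277283-13311433, + strand), the ligase that seals Okazaki fragments, was at 1.68, 2.64 and 3.93 FPKM (lowest, median and highest) in the hypertensive-LVH group and at 0.871, 1.66 and 2.1 FPKM in the control group. Its groups overlapped, with 10 of the 12 hypertensive-LVH samples above every control sample. Lig1 had a log2 fold change of 0.51 ± 0.10 (SE), with an adjusted p of 3.13e-04 in limma. Fen1, the flap endonuclease that trims the fragments, rose by 0.35. This call was lost under quantile normalization, with the replicate number as a block, and without samples 7 to 9 or 10 to 12 of each group. Of the exonic bases of Fen1, 2039 of 2422 are shared with genes on the opposite strand, mostly with the antisense gene Gm10143, so its value is uncertain.

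Of the 5 genes of nucleotide supply, 4 rose and Dut fell. Tk1 (chr11:117815526-117826092, - strand), the thymidine kinase of S phase, was at 2.94, 4.5 and 5.9 FPKM (lowest, median and highest) in the hypertensive-LVH group and at 1.1, 2.6 and 2.87 FPKM in the control group. Every hypertensive-LVH sample lay above every control sample. Tk1 had a log2 fold change of 0.70 ± 0.10 (SE), with an adjusted p of 1.20e-05 in limma, and its mean FPKM was 1.89 times that of the control group. Rrm2, the subunit that limits ribonucleotide reductase, rose by 0.54 (1.59 to 5.36 FPKM against 1.35 to 2.34 FPKM). Tyms, the thymidylate synthase, rose by 0.39 and Rrm1, the large reductase subunit, by 0.17. The call of Rrm1 was lost under quantile normalization and with the replicate number as a block. It was also lost without samples 4 to 6 or samples 7 to 9 of each group. Tyms has a pseudogene in the genome, so its value is uncertain. From the first set to the last its difference was 0.24, 0.87, 0.21 and 0.23 (interaction of set and group, adjusted p = 0.0849, limma).

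Dut (chr2:125247190-125258608, + strand), the dUTPase that turns dUTP into the precursor of thymidylate, ran the other way. It was at 5.28, 7.6 and 8.52 FPKM (lowest, median and highest) in the hypertensive-LVH group and at 7.84, 9.08 and 10.7 FPKM in the control group. All 12 hypertensive-LVH samples lay below the control median, and 6 of them below every control sample. The log2 fold change was -0.29 ± 0.06 (SE), with an adjusted p of 0.00118 in limma, and the call stood in every other setting run.

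Of the 4 genes of chromatin assembly and DNA methylation, 3 rose. Uhrf1 (chr17:56303321-56323486, + strand), which reads hemimethylated DNA behind the fork and recruits Dnmt1, was at 1.17, 2.08 and 3.41 FPKM (lowest, median and highest) in the hypertensive-LVH group and at 0.326, 0.932 and 1.21 FPKM in the control group. All but 1 of the hypertensive-LVH samples lay above every control sample. The log2 fold change of Uhrf1 was 0.75 ± 0.10 (SE), with an adjusted p of 7.41e-06 in limma, and its mean FPKM was 2.48 times that of the control group. Chaf1a and Chaf1b, subunits of the histone chaperone CAF-1, rose by 0.52 and 0.66. In Chaf1a the hypertensive-LVH samples ran from 1.27 to 2.19 FPKM and the control samples from 0.555 to 1.24 FPKM, with no overlap. Of its exonic bases, 4648 of 8854 are shared with Ubxn6 on the opposite strand, so the value of Chaf1a is uncertain. Ubxn6 was far more abundant, with means of 35.8 FPKM against 35.7 FPKM in the control group (log2 fold change 0.00). Dnmt1, the maintenance methyltransferase, had a log2 fold change of 0.21 and did not pass the test (adjusted p = 0.0548, limma).

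**Figure D2:**
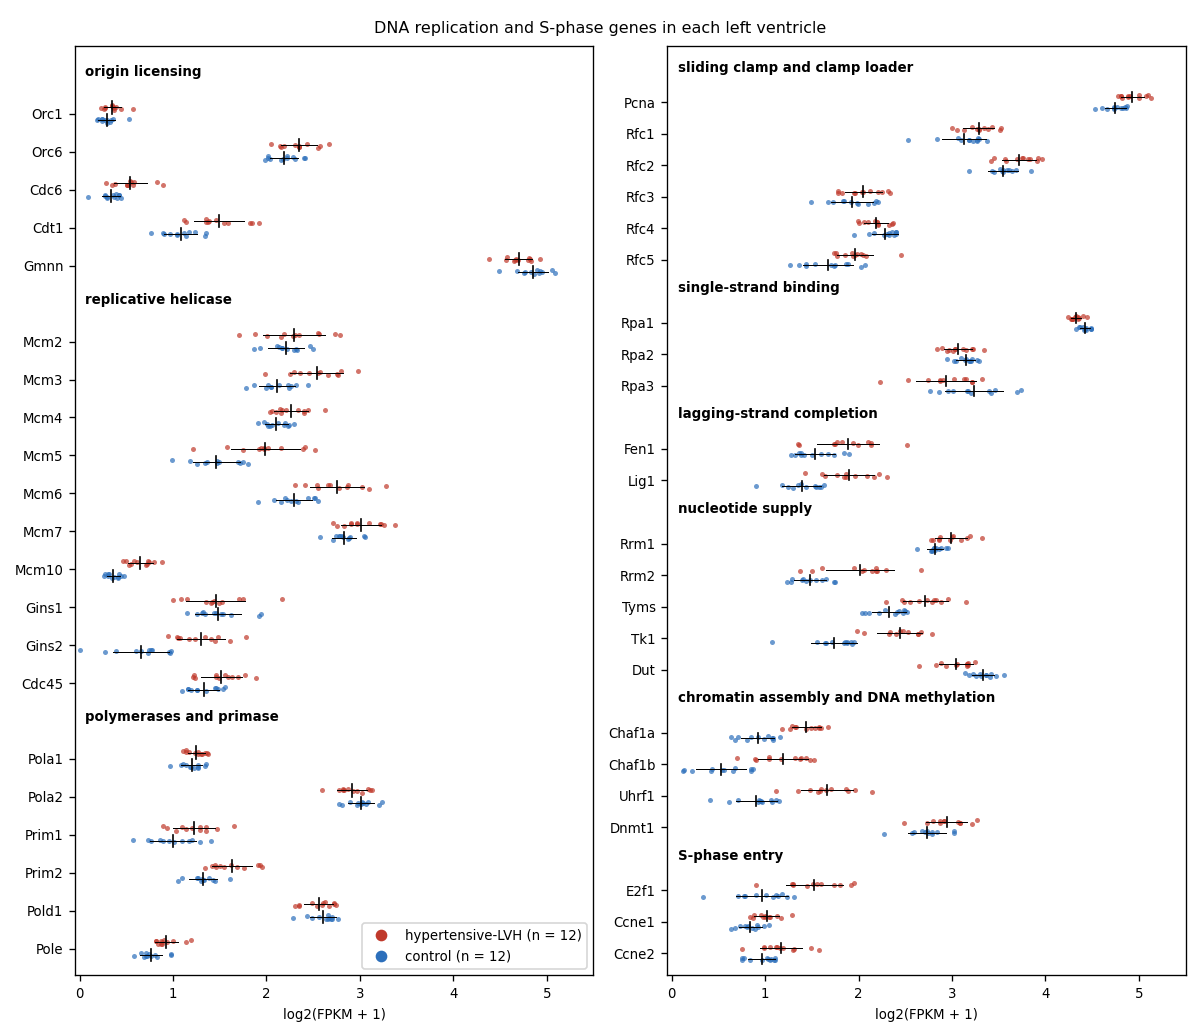
The horizontal axis is log2(FPKM + 1), with negative values set to 0, and each point is a sample (12 hypertensive-LVH in red, 12 control in blue) of the gene named at the left, with the group mean as a tick and its SD as a line. Tk1 and Chaf1a show no overlap between the groups, while Dut and Rpa1 lie lower in the hypertensive-LVH group.

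Tk1 and Chaf1a were the 2 genes of the 44 whose groups did not overlap upwards, against 0.271% of all genes tested. Downwards, 0 of the 44 did so, against 0.485%. The value of Chaf1a is uncertain, since many of its exonic bases are shared with Ubxn6. Among the 24 genes that rose, hypertensive-LVH sample 11 was the highest of its group in 16 and sample 12 the lowest in 13. Sample 12 lay above the control median in 18 of the 24 genes. Samples 11 and 12 also stood apart in the mitosis genes described below, with the highest (167 FPKM) and lowest (66.3 FPKM) sums of their group. Sample 12 had the lowest macrophage marker sum (247 FPKM) and endothelial marker sum (348 FPKM) of its group. It also had the lowest smooth muscle and pericyte sum (293 FPKM) but the highest neutrophil sum (24.4 FPKM). The lowest fibroblast sum (708 FPKM) was that of sample 9. The part of these markers in the result was not tested.

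The share of the 44 genes that rose differed with their level in the control group. Of 11 genes with a control mean under 1 FPKM, 10 rose (90.9%), and the median ratio of means was 1.91. Of 20 genes between 1 and 5 FPKM, 11 rose (55%), with a median ratio of 1.36. Of 13 genes at 5 FPKM and over, 3 rose (23.1%) and 2 fell (15.4%), with a median ratio of 0.966. Over all genes tested, the shares that rose at these levels were 21.3%, 21.4% and 20.5%, with median ratios of 1.2, 1.09 and 1.03. This comparison is a description with no test. With a pseudocount of 0.1 in place of 1, the log2 fold changes of the low genes Chaf1b, Gins2 and Mcm10 were 1.46, 1.35 and 0.80.

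**Figure D3:**
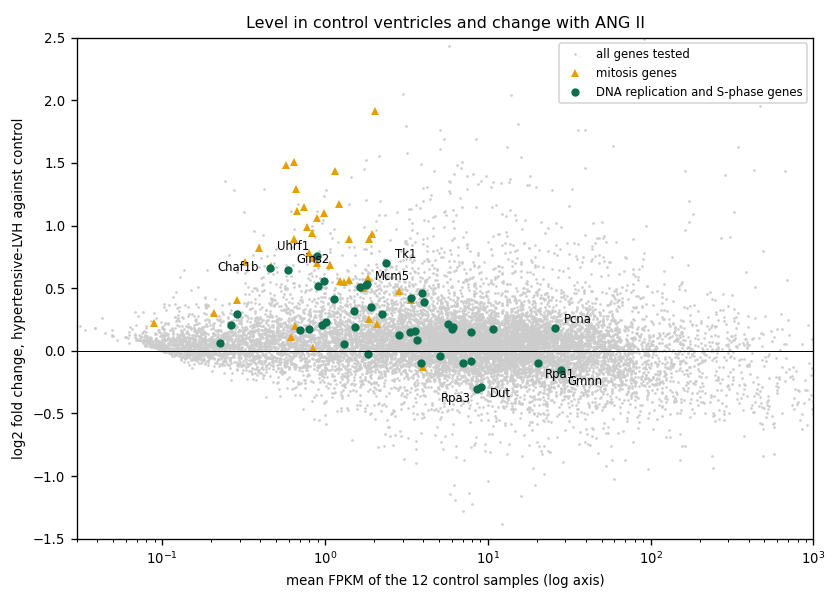
The horizontal log axis shows the mean FPKM of the control group and the vertical axis the log2 fold change of FPKM + 1, with all genes tested as grey points, the mitosis genes as orange triangles and the 44 genes as green points. The genes with a large increase lie mostly under 5 FPKM, and 72 genes, none of the 44, lie outside the axes.

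The differences were then taken within each of the 4 sets, each with 3 samples of each group. Of all 44 genes, 27 had a positive difference in the first set (61.4%, against 48.5% of all genes tested), 37 in the next (84.1% against 74.6%), 33 in the third (75% against 45.3%) and 36 in the last (81.8% against 55.8%). The median difference of the 44 in log2(FPKM + 1) was 0.05, 0.39, 0.18 and 0.20 in that order, against -0.01, 0.18, -0.02 and 0.03 over all genes tested. The 24 genes that rose were called on these same samples, which largely fixes their direction, and their median differences were 0.13, 0.54, 0.34 and 0.46 in the same order. A test of whether the difference varied between sets (F test in limma, added after the values were seen) called 0 of the 44 genes, against 7.49% of all genes tested. At an unadjusted p under 0.05 the counts were 7 of the 44 and 3504 of 14026. A contrast of the first set against the others (limma), also added, called 0 of the 44 genes and 19 of all genes tested. Its counts at an unadjusted p under 0.05 were 10 of the 44, with 9 of the 24 that rose, and 1618 of 14026. The control samples 4 to 6 had fibroblast marker sums of 142 to 258 FPKM and macrophage marker sums of 176 to 199 FPKM, the lowest of the control group. Without samples 4 to 6 of both groups, 18 of the 44 genes rose and 3 fell, while over all genes 8.36% rose and 11.6% fell.

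**Figure D4:**
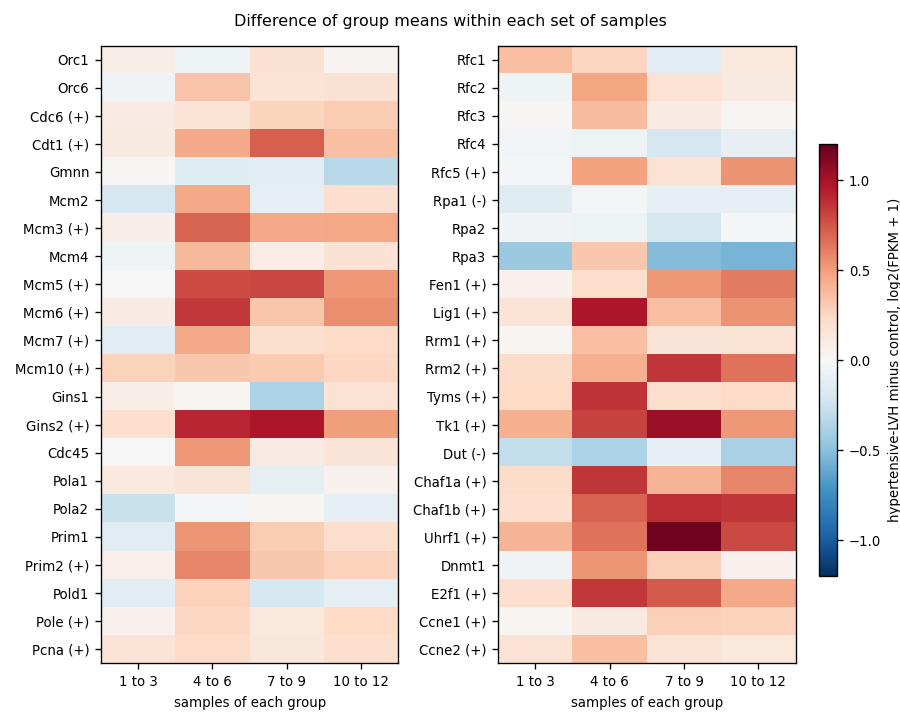
Each row is a gene and each column a set of samples, and the colour gives the mean log2(FPKM + 1) of the 3 hypertensive-LVH samples minus that of the 3 control samples (red higher, blue lower), with (+) beside genes that rose and (-) beside those that fell. The differences of the genes that rose are smallest in samples 1 to 3, with a median of 0.13, and largest in samples 4 to 6, with a median of 0.54.

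Other genes of the pathway were taken from lists that the 44 do not share, and their counts stand against the 20.9% of all genes that rose and the 12.6% that fell. Of 33 other replication genes, 10 rose and 0 fell, with a median log2 fold change of 0.10. Dbf4, which activates the kinase that fires origins, had the largest increase (0.54, adjusted p = 3.35e-05, limma). Of 15 other G1/S regulators, 11 rose and 0 fell, with a median of 0.23. The largest increase among them was that of Cdkn1a (0.89, adjusted p = 0.0158, limma), which encodes the inhibitor p21 and acts against S-phase entry. Its difference was not the same in all sets, at 1.63, -0.79, 1.91 and 0.83 from the first set to the last (interaction of set and group, adjusted p = 0.0164, limma). Of 12 other genes of replication-coupled chromatin, 6 rose, led by the histone chaperone gene Asf1b (0.49, adjusted p = 0.0019, limma). Of 16 genes of fork protection and recombination, 8 rose, with a median of 0.12, and 0 fell in either list. Of 24 other nucleotide supply genes, 3 rose and 6 fell, with a median of -0.01. Dck, a salvage kinase, had the largest increase (0.26, adjusted p = 0.0166, limma), and Dhodh, the mitochondrial enzyme of pyrimidine synthesis, fell by 0.34 on the log2 scale (adjusted p = 6.23e-05, limma).

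The genes listed for mitosis, the stage that follows replication, rose more often, although some of them, such as Ccna2, also act in S phase. Of 39, 36 rose (92.3%, against 20.9% of all genes tested) and 0 fell (against 12.6%). Of the 36, 27 also passed a log2 fold change of 0.5, against 4.52% of all genes tested. The median log2 fold change of the 39 was 0.71. Some of these genes were chosen by the study on these same samples, so their direction is not independent. Ube2c, the ubiquitin-conjugating enzyme of the anaphase-promoting complex, had the largest increase (1.92, adjusted p = 1.76e-05, limma). Ccna2, the cyclin of S phase and G2, rose by 1.43 (adjusted p = 2.11e-05, limma), Mki67, the proliferation marker, by 0.50 and Top2a, the topoisomerase of mitotic chromosomes, by 0.41. The differences of Ube2c, Ccna2 and Mki67 were positive in all 4 sets but varied between them (interaction of set and group, adjusted p = 2.41e-04, 0.0114 and 0.0464, limma). The difference between the mitosis genes and the 44 genes was not tested. The letters TTTGAA, part of the CHR element known from mitotic genes, stood in 24 of 32 promoters of mitosis genes (75%), in 4 of the 36 promoters of the 44 genes (11.1%), in 12% of the promoters of tested genes and in 18.1% of all promoters. The E2F letters stood in 1 of those 32 promoters (3.12%).

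Markers of several cell types moved with the groups, and their counts stand against the 20.9% of all genes that rose and the 12.6% that fell. All 8 macrophage markers rose, and their sum was 247 to 707 FPKM in the hypertensive-LVH group and 176 to 379 FPKM in the control group. Of 8 fibroblast markers 4 rose (708 to 2639 FPKM against 142 to 1017 FPKM), and all 5 red blood cell markers rose (779 to 6443 FPKM against 92.2 to 2949 FPKM). Of 8 cardiomyocyte markers 4 fell and 1 rose (31664 to 45190 FPKM against 41501 to 51967 FPKM). In the other lists, which hold few genes, 2 of 5 monocyte, 1 of 5 neutrophil and 1 of 5 T cell markers rose, and 0 of 3 atrial myocyte markers passed the test. In each of the endothelial and smooth muscle lists 2 of 8 markers rose and 1 fell, and of 4 B cell markers 0 rose and 1 fell. The defining markers Ly6g and Ms4a1 were under the filter, and Fcnb, Trac and Bmp10 were not analysed here. The part of these cell types in the rise of the replication genes was not tested.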

How the data were processed

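RNA of left ventricles was sequenced by the authors, and 24 samples (12 per group) are analysed here. The methods of the study name more samples per group, and the others were not analysed here. The deposited values are named FPKM. Per the labels, the submitters' processing notes name HISAT, Bowtie2 and RSEM, with no roles or versions, and the genome build is not given in the sources used here. The values are no longer plain FPKM: 2741 were negative in 1201 genes, and genes tied between samples of the same group and set only, leaving aside 278 genes in whole hundredths. The deposited unit is therefore recorded as another, adjusted measure.

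Negative values were set to 0 for log2(FPKM + 1) and kept in printed FPKM. Genes whose mean reached 0.1 FPKM were fitted with limma 3.58.1 (intensity trend, R 4.3.3), with Benjamini-Hochberg adjustment over 14026 genes, and 886 were left out. The script was tested on simulated data. Other values used Python 3.11.15, numpy 2.4.6, pandas 2.3.3 and scipy 1.17.1, and figures matplotlib 3.10.9. Gene positions and shared exons were from GENCODE vM21 (build GRCm38). The 44 genes and all lists were chosen with earlier results of these data known. In each role the called gene with the largest increase and the called gene with the largest decrease are given in full, and the others by call and fold change. The gene with the largest increase in 1 of the other lists is not reported here. Others given with ranges, such as Mcm5, Mcm6, Rrm2 and Chaf1a, were picked with their values in view. Alternatives were a pseudocount of 0.1, other filters, scalings and tests, the set of samples as a term, the replicate number as a block, and leaving out each sample or set. Same-numbered samples of the groups did not deviate together (correlations from -0.557 to -0.00109), so numbers were not taken as pairs.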

Additional observations from a re-analysis of the deposited data

How the results depend on the processing

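Of the 44 genes, 24 were called higher, and this count ran from 16 to 29 over the settings, within 1.5 times throughout. It was 16 under quantile normalization (with 6 called lower, and 1922 higher and 2930 lower over all genes, where the median of all genes moved from 0.05 to -0.02), 18 without samples 4 to 6 and 29 without samples 1 to 3 of each group. No direction of the 26 called genes reversed in any setting. The count that also passed a log2 fold change of 0.5 was 9, and was 14 with a pseudocount of 0.1, 5 with median-ratio scaling, 4 with quantile normalization and 5 without samples 4 to 6. It ran from 5 to 10 when each sample was left out, with 5 without hypertensive-LVH sample 11. By the same 2 criteria 0 genes fell, and 1 without samples 4 to 6. The 2 genes called lower became 4 with median-ratio scaling, 6 with quantile normalization and 1 without samples 7 to 9 and without samples 10 to 12 (Dut each time), and ran from 2 to 4 when each sample was left out (4 without control sample 5). With the replicate number as a block, 18 genes were called higher and 1 lower. The numbers do not pair the samples, since 0 of 12 same-numbered pairs had a correlation over 0.1 and 0 samples correlated best with their own number. The values had been adjusted before deposit, apparently by group and set, and the depth behind them is unknown.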

Other observations

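After the values were seen, the 44 genes were set against Mki67, the proliferation marker, over the 24 samples, with the mean of each group within each set of samples taken away. In 100000 permutations within those groups and sets, 0 of 44 relations had an adjusted p under 0.05 (Benjamini-Hochberg over 44) by Pearson's r or Spearman's rho, and 30 of the 44 values of r were positive. The median r was 0.103 over the 44 genes, 0.189 over those that rose, 0.568 over 38 mitosis genes and 0.145 over all genes. Mcm10 had the highest r, 0.655 (permutation p = 0.0149, adjusted p = 0.284), with a Spearman's rho of 0.704 (permutation p = 0.00585, adjusted p = 0.246), and r was 0.62 without the 2 samples farthest from the median. Residuals from 3 samples per group and set share the adjustment made before deposit.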
